A study of Mus musculus with 3 samples.

Results

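The tRNAs for isoleucine, tryptophan, phenylalanine and proline were followed in small RNA libraries from the mouse epididymis, the duct in which sperm mature. They were chosen by gene name, with earlier results of these data known, and comprise 49 of the 446 tRNA genes in the deposited table: 14 for isoleucine, 8 for tryptophan, 7 for phenylalanine and 20 for proline. Of these genes, 48 had at least 1 read in the gene table. They form 9 of the 56 isoacceptors, an isoacceptor being all tRNA genes with the same amino acid and anticodon. The samples were 2 Alkbh3-/- libraries, called A and B after the order of the deposited columns, and 1 wild type library, all of untreated epididymis. Which of them is replicate 1 in the labels cannot be told from the column names. The labels give no age. They also leave out whether separate animals gave the Alkbh3-/- libraries, and the p-values therefore cover only how far these samples vary, which may be technical. The wild type column name begins with B6 and the Alkbh3-/- names do not, and whether the groups share a strain is not known here. The genotype labels could not be checked against Alkbh3 RNA, which was not analysed here, nor the tissue against its marker mRNAs.

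A tRNA carries an amino acid to the ribosome and reads the codon with its anticodon, which lies in a loop near the middle of the molecule. Nucleases that cut in or beside this loop release long 5′ and 3′ pieces, known as tRNA fragments, and such pieces are abundant in the epididymis and in maturing sperm. ALKBH3 is an enzyme that strips methyl marks off adenosines and cytidines of tRNA and other nucleic acids.

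The reads are of fragments: per the labels RNA of 15 to 50 nt was cut from the gel, although the fragment tables hold lengths up to 68 nt. Lengths over 50 nt made up 16.7% and 33.6% of the Ile-AAT fragment reads in Alkbh3-/- libraries A and B and 24.2% in wild type, and 19.3% and 18.6% of those of Phe-GAA in Alkbh3-/- and 33.3% in wild type. Over the fragment reads of all tRNAs they made up 0.217% and 0.24% in libraries A and B and 0.149% in wild type. That total is weighted by the most abundant tRNAs and does not give the share of a typical isoacceptor. Reads in the 5 RNA classes came to 15411457 in Alkbh3-/- library A and 21169908 in library B, and to 15107055 in wild type, and a level in RPM is the read number divided by that sum, times 1000000. The 4 tRNA families were a small part of the tRNA gene reads, 0.280% in library A and 0.196% in library B, against 0.183% in wild type. miRNA took 24.8% and 30.7% of the class reads in Alkbh3-/- libraries A and B and 15.1% in wild type. The tRNA class took 36.5% and 38.1% in Alkbh3-/- and 44.7% in wild type. Both shares enter every RPM value.

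Sequences of 2 proline genes were held by the reference tables, and they are printed because they place the anticodon, in capitals, against the fragment lengths described below. The first is from a GENCODE M21 transcript of Myh8 and the second from the RefSeq GRCm38.p6 promoter sequence of Gm41543, both of the build mm10.
Pro-TGG-3-1: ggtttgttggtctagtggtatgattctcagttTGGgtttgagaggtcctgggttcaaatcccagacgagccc
Pro-TGG-5-1: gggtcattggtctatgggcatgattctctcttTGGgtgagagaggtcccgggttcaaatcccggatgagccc
The first gene lies at chr11:67291139-67291210 on the plus strand, within an exon of Myh8, and the second at chr17:23538766-23538837 on the minus strand, between annotated genes. Each is 72 bases long with the anticodon at bases 33 to 35 from the 5′ end, so 32 bases come before it. The 2 sequences match at 59 of 72 bases. Both genes gave few reads: Pro-TGG-3-1 had 4 and 3 reads in Alkbh3-/- libraries A and B and 6 in wild type, and Pro-TGG-5-1 had 0 in each library of the gene table, where a count of 0 allows up to 0.195 and 0.142 RPM in libraries A and B and up to 0.199 RPM in wild type (3 reads).

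The 49 genes lie on 17 chromosomes, 11 of them on chromosome 13 and 9 on chromosome 11. By GENCODE M21, 43 lie between genes, 5 in introns and 1 in an exon. Several members are close neighbours. Pro-TGG-1-1 and Pro-AGG-1-4 on chromosome 7 are separated by 189 bases on opposite strands, Pro-AGG-1-1 and Pro-CGG-1-1 on chromosome 1 by 565 bases on opposite strands, and Ile-AAT-1-5 and Phe-GAA-3-1 on chromosome 13 by 778 bases on the same strand.

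**Figure D1:**
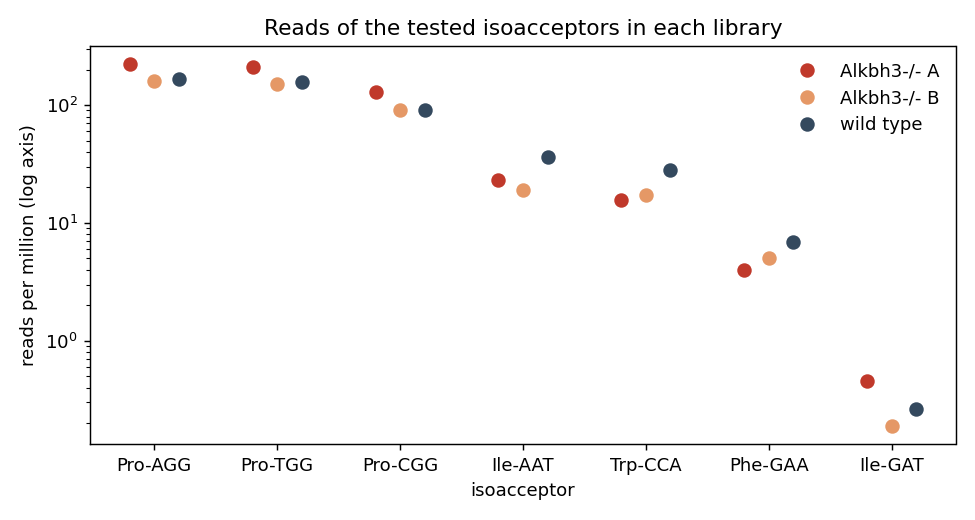
RPM of the 7 tested isoacceptors (log axis) in Alkbh3-/- libraries A and B and in wild type, each point 1 library. Ile-AAT, Trp-CCA and Phe-GAA lie lower in both Alkbh3-/- libraries than in wild type, and the 3 proline isoacceptors are highest in library A.

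The levels fell into 3 tiers. The proline isoacceptors Pro-AGG, Pro-TGG and Pro-CGG had medians over the 3 libraries of 168, 156 and 90.4 RPM. Ile-AAT followed with 23.3 RPM, Trp-CCA with 17.4 RPM and Phe-GAA with 5.01 RPM. The ranges of Pro-AGG (160 to 223 RPM) and Pro-TGG (150 to 212 RPM) overlapped, as did those of Ile-AAT (18.9 to 36.1 RPM) and Trp-CCA (15.6 to 28.0 RPM). Within each library, however, Pro-AGG lay above Pro-TGG and Ile-AAT above Trp-CCA. These orders were not tested. The proline levels are sums over 8 copies each for Pro-AGG and Pro-TGG and 3 for Pro-CGG. In wild type, copies of Pro-AGG-1 had 340 to 504 reads each. Those of Pro-CGG-1 had 404 to 542 and those of Pro-TGG-2 424 to 619. The single Pro-TGG-1 copy had 346, and the other copies had 42 or fewer. How reads that match several copies were assigned is not known, so the sums may not be levels of separate anticodons. The remaining 3 isoacceptors were barely detected. Ile-GAT had 7 and 4 reads in Alkbh3-/- libraries A and B and 4 in wild type, Pro-GGG had 1 and 5 against 2, and Ile-TAT had 0 and 0 against 1.

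Trp-CCA, the tRNA for tryptophan, had 15.6 and 17.4 RPM in Alkbh3-/- libraries A and B (241 and 369 reads), against 28.0 RPM (423 reads) in wild type. Both Alkbh3-/- values lay below the wild type value and differed from each other by far less than from it. The Alkbh3-/- mean was 16.5 ± 1.27 RPM (SD, n = 2), 0.590 of wild type. On the log2 scale the difference was -0.75 with an SE of 0.21, worked back from the test statistic (adjusted p = 0.0051 by edgeR's quasi-likelihood test).

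Ile-AAT, whose first anticodon base is read as inosine in the mature tRNA, had 23.3 and 18.9 RPM in Alkbh3-/- libraries A and B (359 and 401 reads), against 36.1 RPM (545 reads) in wild type. Again both Alkbh3-/- values were lower and the groups did not overlap. The Alkbh3-/- mean was 21.1 ± 3.08 RPM (SD, n = 2), 0.585 of wild type, or -0.80 on the log2 scale with an SE of 0.19 (adjusted p = 0.0013 by the same edgeR test).

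Phe-GAA, the tRNA for phenylalanine, had 4.02 and 5.01 RPM in Alkbh3-/- libraries A and B (62 and 106 reads), against 6.88 RPM (104 reads) in wild type. It lay lower in both Alkbh3-/- libraries but did not pass, at -0.58 on the log2 scale with an SE of 0.49 (adjusted p = 0.51, edgeR).

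With an adjusted p under 0.05, 2 of the 7 tested members were called, both lower in Alkbh3-/-, against 17.4% of all 46 tested isoacceptors called lower and 23.9% called in either direction. Since the members were taken up with this contrast known, nothing is read from that count. The calls also depend on the method. edgeR's default quasi-likelihood method in this version was run first and called 5 of 46 isoacceptors and 0 of the 7 members (adjusted p = 0.064 for both Ile-AAT and Trp-CCA, with 10 isoacceptors at an unadjusted p under 0.05). The values above are from its newer method, which was then taken because an earlier analysis of these data had used it, and which called 11. Over 9 fits, the reported one included, Trp-CCA passed in 5 and Ile-AAT in 4. The log2 fold changes were -0.88 to -0.39 and -0.88 to -0.44, always lower in Alkbh3-/-. For Ile-AAT the passing fits were the reported one, the same fit with other count filters and the fit without its leading copy. Those with another scaling, method or kind of table did not pass, so the count of 4 is no separate support.

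Over all 46 tested isoacceptors the log2 fold changes had a median of -0.26 on this scale, so relative to it Trp-CCA stood at -0.49 and Ile-AAT at -0.54. Scaled to the sum of the tRNA gene counts, where the median was 0.01, the fold changes were -0.49 for Trp-CCA (edgeR adjusted p = 0.051) and -0.53 for Ile-AAT (edgeR adjusted p = 0.078). In bulk tissue, fewer cells of a type and less RNA per cell cannot be told apart, and neither can a change in fragment amount and a change in how well a modified fragment is copied into the library.

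**Figure D2:**
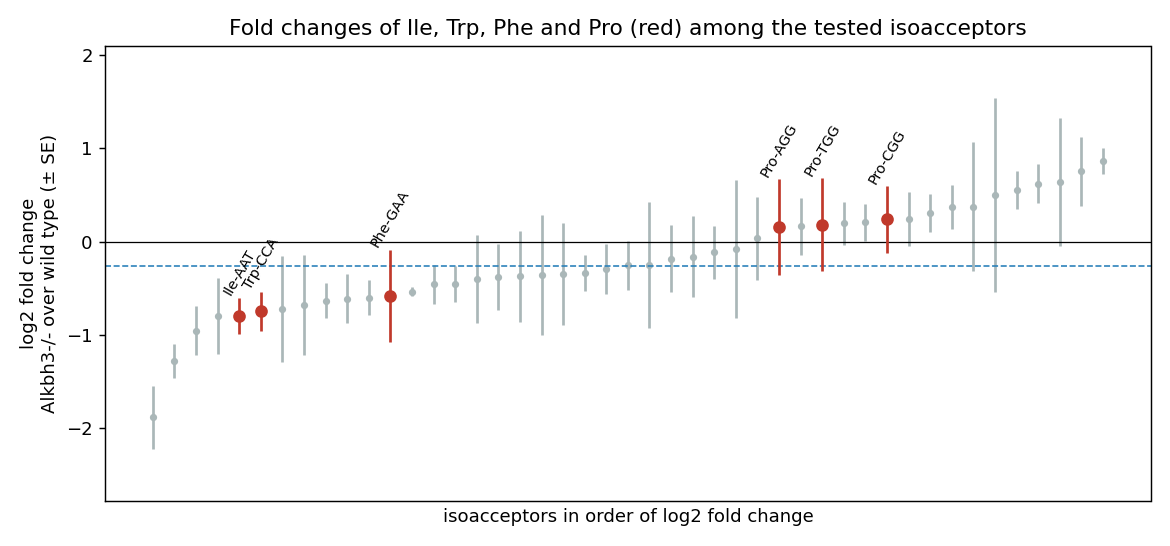
Log2 fold change (Alkbh3-/- over wild type) with SE, worked back from the test statistic, for the tested isoacceptors in rank order. Ile-GAT was left out for its SE of 3.58. Ile, Trp, Phe and Pro are in red, the others in grey, and the dashed line is at the median of -0.26. Ile-AAT and Trp-CCA lie near the low end, while the proline isoacceptors lie above the median with error bars that span 0.

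The proline tRNAs did not share this pattern. Pro-AGG had 223 and 160 RPM in Alkbh3-/- libraries A and B (3436 and 3389 reads), against 168 RPM (2537 reads) in wild type. Pro-TGG had 212 and 150 RPM in libraries A and B, against 156 RPM in wild type. Pro-CGG had 129 and 90.3 RPM in libraries A and B, against 90.4 RPM in wild type. In each of them library A was high and library B lay at or slightly below wild type. The wild type value thus fell between the Alkbh3-/- values. Whether these isoacceptors share reads is not known, so they are not taken as separate results. The log2 fold changes were 0.15 (SE 0.51) for Pro-AGG, 0.18 (SE 0.50) for Pro-TGG and 0.24 (SE 0.36) for Pro-CGG, and none passed (lowest edgeR adjusted p 0.73). With library B alone, Pro-AGG and Pro-TGG turned to -0.07 and -0.06.

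The fragment tables divide the reads of each gene by length and by 2 end classes that the files do not name. Their read sums differ from the gene counts behind the levels above. RPM of fragments and RPM of genes are therefore not on one scale. For Trp-CCA the most abundant fragment was one of 37 nt in the second class. It had 12.5 and 12.8 RPM in Alkbh3-/- libraries A and B (192 and 271 reads), against 28.3 RPM (428 reads) in wild type. The Alkbh3-/- libraries almost coincided and lay below wild type, although the fragment did not pass over the 572 fragments tested (log2 fold change -1.16, SE 0.55, edgeR adjusted p = 0.43). All Trp-CCA fragments together had 16.7 and 19.4 RPM in libraries A and B, against 33.6 RPM in wild type. Without the 37 nt fragment, the others had 4.28 and 6.57 RPM in libraries A and B, against 5.23 RPM in wild type. The wild type value then lay between the Alkbh3-/- values.

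The 37 nt fragment made up 74.4% of the Trp-CCA fragment reads in library A (95% interval 68.6 to 79.6%) and 66.1% in library B (61.3 to 70.7%), against 84.4% in wild type (81.0 to 87.5%). These Clopper-Pearson intervals cover counting error only. The wild type share lay above both. Trp-CCA had rank 3 of 44 isoacceptors by its second-class share, with 89.9% and 82.0% in libraries A and B and 93.1% in wild type. The isoacceptors nearest to it in that share were Ala-TGC, Met-CAT and Arg-TCG.

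The 8 Trp-CCA genes fall into 6 isodecoders, groups of copies with 1 mature sequence by their names. Trp-CCA-5-1 led, on chromosome 11 between annotated genes, with 99 and 133 reads in Alkbh3-/- libraries A and B and 218 in wild type. That is 6.42 and 6.28 RPM in Alkbh3-/- and 14.4 RPM in wild type, lower in both Alkbh3-/- libraries. Trp-CCA-2-1 had 3.96 and 5.24 RPM in libraries A and B against 4.77 RPM in wild type, which lay between them. By the 37 nt fragment, Trp-CCA-2 had 2.14 and 2.55 RPM in libraries A and B against 4.04 RPM in wild type. Trp-CCA-5 had 6.94 and 7.09 RPM against 17.9 RPM. The other isodecoders were also lower in both Alkbh3-/- libraries, with as few as 7 reads in a library. The isodecoders divide the reads of 1 fragment that did not pass, so they are no replicates and add no separate support. Copies that share sequence may share reads, and the sources used here do not give how such reads were assigned. Without Trp-CCA-5-1, the Trp-CCA level was 9.21 and 11.1 RPM in libraries A and B and 13.6 RPM in wild type, or -0.39 on the log2 scale with an SE of 0.33 (adjusted p = 0.50, edgeR).

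**Figure D3:**
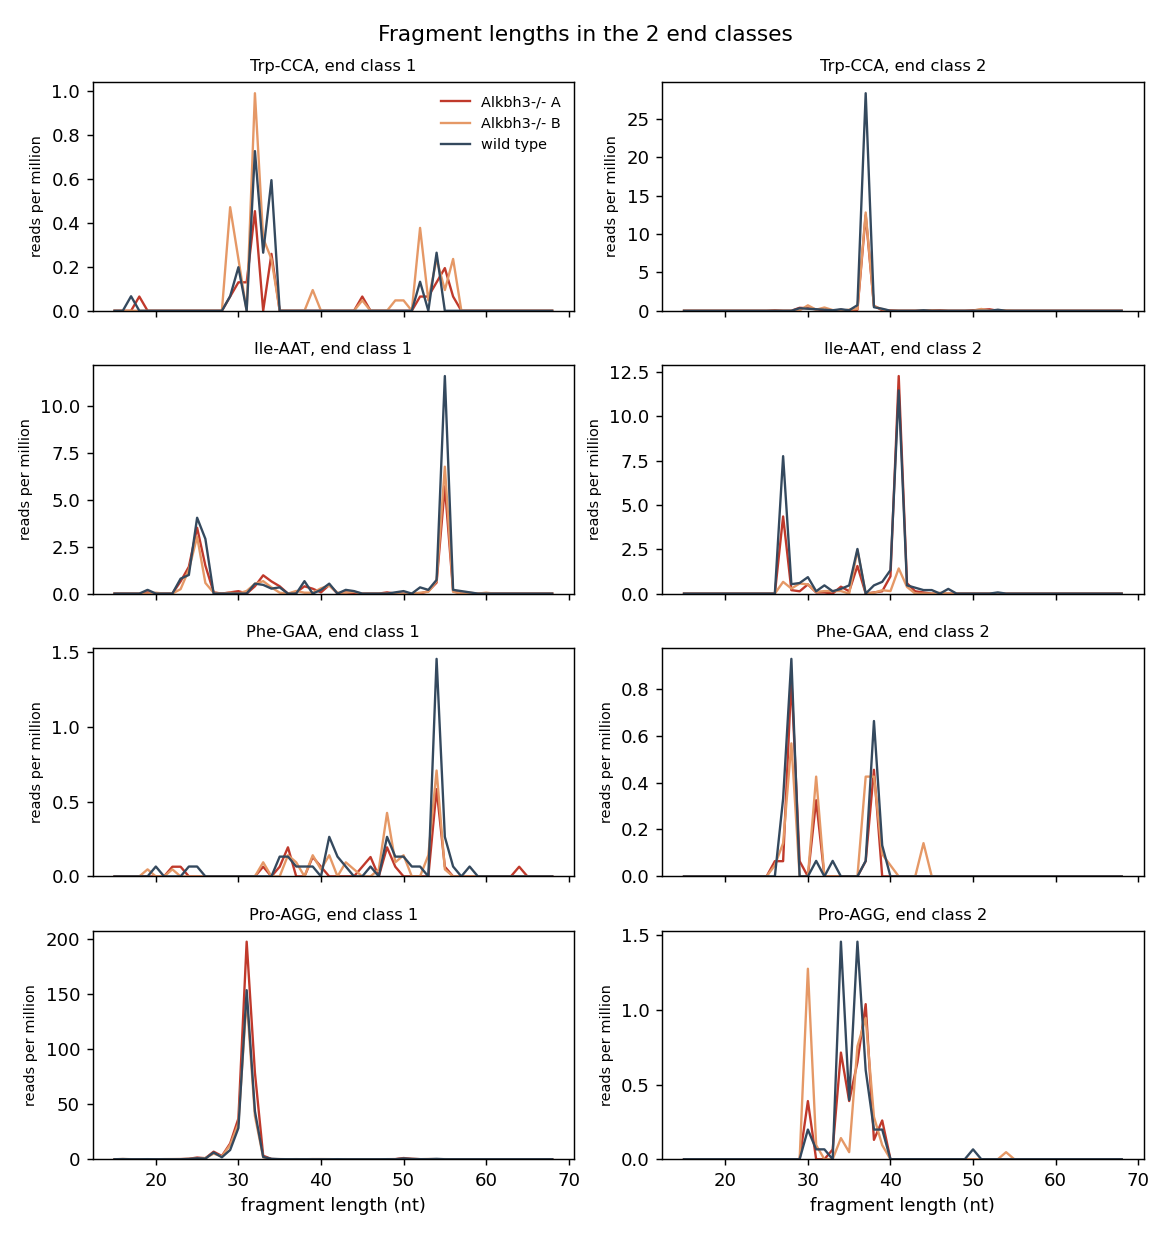
Fragment length (nt) against RPM in the first (left) and second (right) end class for Trp-CCA, Ile-AAT, Phe-GAA and Pro-AGG, 1 line per library; the vertical scales differ. Trp-CCA peaks at 37 nt in the second class, Ile-AAT at 55 nt in the first and at 41 nt in the second, and Pro-AGG at 31 nt in the first.

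Ile-AAT gave several fragments, and the Alkbh3-/- libraries differed strongly on those of 41 and 27 nt in the second class. The 41 nt fragment of the second class had 12.3 and 1.42 RPM in Alkbh3-/- libraries A and B (189 and 30 reads), against 11.5 RPM (173 reads) in wild type. Library A matched wild type and library B was far below both. The 27 nt fragment of that class had 4.35 and 0.661 RPM in libraries A and B, against 7.74 RPM in wild type, and came nearest to the threshold among member fragments (log2 fold change -1.77, SE 0.65, edgeR adjusted p = 0.16). In the first class, a 55 nt fragment, longer than the stated gel range, had 5.71 and 6.75 RPM in libraries A and B, against 11.6 RPM in wild type, and a 25 nt fragment had 3.50 and 3.02 RPM, against 4.04 RPM. Both were lower in each Alkbh3-/- library, and neither passed (edgeR adjusted p = 0.63 and 0.95).

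The second class made up 55.0% of the Ile-AAT fragment reads in library A and 31.4% in library B, against 53.2% in wild type. Library B stood apart from the other two. All Ile-AAT fragments together had 39.3 and 23.1 RPM in Alkbh3-/- libraries A and B, against 54.9 RPM in wild type. Leaving out the 41 and 27 nt fragments, the rest had 22.7 and 21.0 RPM in Alkbh3-/- libraries A and B, against 35.7 RPM in wild type. The lower level was thus present in both Alkbh3-/- libraries without the fragments on which they differed strongly. Of the 12 Ile-AAT genes, the 8 of isodecoder 1 held most reads, 20.1 and 16.5 RPM in Alkbh3-/- libraries A and B against 29.7 RPM in wild type. Ile-AAT-3-1 had 2.86 and 1.75 RPM in libraries A and B against 5.63 RPM in wild type. The leading copy over the 3 libraries, Ile-AAT-1-6, lies in an intron of Gm11292 on chromosome 13. In wild type, however, it had 73 reads and Ile-AAT-3-1 had 85. It is 1 of the 8 copies of isodecoder 1, and which of these gave its reads is not known.

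Phe-GAA had too few reads for most of its fragments to be tested. Its 28 nt fragment of the second class had 13 and 12 reads in Alkbh3-/- libraries A and B and 14 in wild type, 0.844 and 0.567 RPM against 0.927 RPM (edgeR adjusted p = 0.96).

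The proline reads were of another form. Between 87.4 and 91.7% of the fragment reads of Pro-AGG, Pro-CGG and Pro-TGG in the Alkbh3-/- libraries, and between 86.9 and 90.2% in wild type, were 30 to 33 nt long, and nearly all were of the first class. The 31 nt fragment of Pro-AGG led with 198 and 146 RPM in Alkbh3-/- libraries A and B, against 154 RPM in wild type. In both printed proline genes, a fragment of up to 32 bases that began at the 5′ end would stop before the anticodon and one of 33 bases would include its first base. At 33 nt the shares of the isoacceptors differed. The totals under these shares may hold shorter reads that proline copies have in common, and how those were assigned is not known. Pro-AGG had 0.927% and 0.722% of its fragment reads there in libraries A and B and 0.838% in wild type. Pro-CGG had 19.4% and 13.4%, against 14.4%, and Pro-TGG had 12.0% and 8.20%, against 10.9%. The low share of Pro-AGG was present in all 3 libraries, outside the intervals of the other two (0.511 to 1.22% for Pro-AGG over the libraries, and at least 7.42% for the others).

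**Figure D4:**
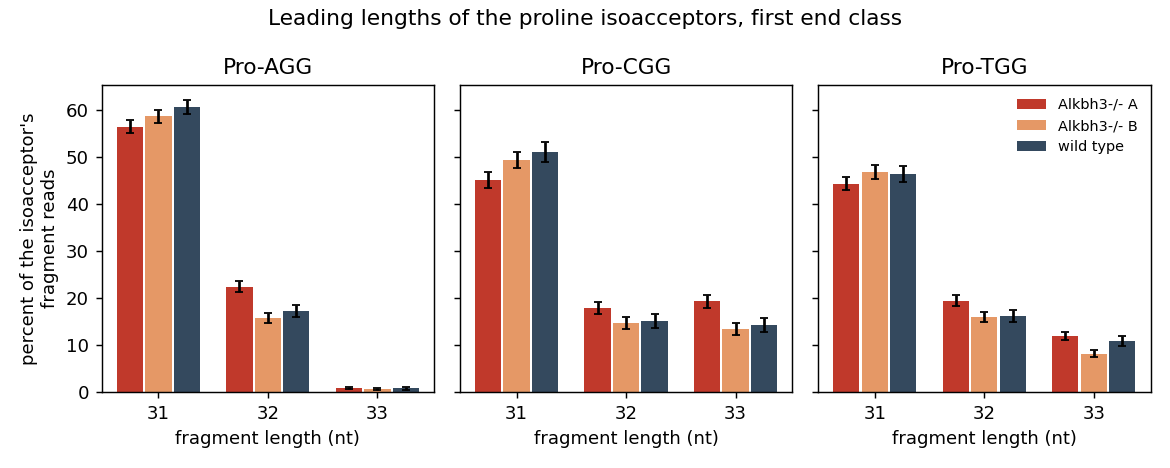
Share of each proline isoacceptor's fragment reads at 31, 32 and 33 nt in the first end class, by library, with Clopper-Pearson 95% intervals. Pro-AGG is under 1% at 33 nt in every library, while Pro-CGG and Pro-TGG lie between 8.20 and 19.4%.

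Of the 38 member fragments tested, 0 passed with edgeR, against 2.27% of all 572 fragments, and 2 had an unadjusted p under 0.05. The 7 Ile fragments tested had a median log2 fold change of -0.86 and the 29 proline fragments one of 0.32, beside -0.03 over all fragments. Of the proline fragments, 12 were higher in both Alkbh3-/- libraries, 2 were lower in both, and for 15 wild type lay between. Of the Ile fragments, 1 was higher in both, 5 were lower in both and 1 lay between. Fragments of the same tRNAs are not independent, and these medians were not tested against each other.

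Ile-AAT and Pro-AGG belong to the 8 tRNAs whose first anticodon base is adenosine, which is converted to inosine. Of these, 1 rose (Ser-AGA, log2 fold change 0.62), 2 fell (Ile-AAT and Thr-AGT at -1.28) and 5 did not pass, with a median of -0.05. Over all 46 tested isoacceptors 3 rose and 8 fell, that is 23.9% called and 17.4% called lower, and nothing particular to the list is read from its count. Ile-AAT is also on a list of 12 tRNAs that read codons starting with A, many of which carry a bulky modified adenosine beside the anticodon. The list does not cover all such tRNAs: it leaves out Ile-GAT (log2 fold change 0.18, edgeR adjusted p = 0.96) and iMet-CAT (-0.12, edgeR adjusted p = 0.79), neither of which passed. Of the 10 tested members of the list, 0 rose and 3 fell (Ile-AAT, Thr-AGT, and Asn-GTT at -1.89), with a median of -0.41, beside -0.26 over all tested isoacceptors and 17.4% of them called lower. In both lists the Ile-AAT call held in 4 of the 9 fits, which were close variants of the reported one.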

How the data were processed

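Small RNA of mouse epididymis was sequenced by the authors. Per the labels' protocols, RNA of 15 to 50 nt was recovered from a 15% denaturing gel loaded with 100 μg of total RNA, and libraries were made with a small RNA kit. The values are raw read counts as deposited by the authors, per RNA class, per tRNA gene and, in another kind of table, per gene, fragment length and end class. Per the submitters' processing notes, cutadapt and mm10 were used; neither the aligner nor the handling of reads that match several genes is stated. In the fragment tables, 6 columns of per-gene sums were not used.

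Counts of all copies of an isoacceptor were added up. Isoacceptors reaching 10 reads in the 3 libraries together entered edgeR 4.0.16 (glmQLFit, glmQLFTest; R 4.3.3), with library sizes from the 5 class sums and Benjamini-Hochberg adjustment over all of them. Fragments reaching 10 reads in every library were treated likewise. The SE given with an edgeR fold change is its absolute log2 value divided by the square root of the test's F statistic. It is not reported by the fit itself and is unstable: for Ile-GAT it was 3.58 in the main fit and 0.08 with fragment-table reads. The edgeR method was changed after results were seen: the default was run first and called 0 members, and the newer method was taken as the main one to match an earlier analysis of these data. The spread comes from the 2 Alkbh3-/- libraries (1 residual degree of freedom), is pooled over features, and the lone wild type library is assumed to vary like them. No exact permutation p below 0.33 is possible. The members and lists were chosen with earlier results of these data known. Named were every member isoacceptor, the copy with most reads, and the 2 fragments with the highest mean RPM per isoacceptor and end class where tested. Other copies, fragments and close neighbours were named after their values were seen. Alternatives were TMM factors, tRNA sums as library sizes, DESeq2 1.42.0, other count filters, fragment-table reads, removal of the leading copy and leaving out each Alkbh3-/- library. The tests were tried on simulated data.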

Additional observations from a re-analysis of the deposited data

How the results depend on the processing

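The number of isoacceptors called was 11 with edgeR's newer quasi-likelihood method, 5 with its older one, which is the default and was run first, and 3 with DESeq2. It was 9 to 11 under the other alternatives. The number of fragments called was 13 in the main edgeR fit, 9 to 18 in the other edgeR fits and 32 with DESeq2. Ile-AAT was no longer past the threshold with TMM factors (log2 fold change -0.64, adjusted p = 0.13), tRNA sums as library sizes (-0.53, 0.078), DESeq2 (-0.44, 0.48), fragment-table reads (-0.88, 0.22) or the older method (-0.77, 0.064). Trp-CCA was no longer past it with tRNA sums (-0.49, 0.051), DESeq2 (-0.44, 0.48), the older method (-0.76, 0.064) or without its leading copy (-0.39, 0.50). The cause was not tested. The older method was added as an alternative after seeing the data. With 1 Alkbh3-/- library at a time, the log2 fold change was -0.93 to -0.63 for Ile-AAT and -0.84 to -0.68 for Trp-CCA, and for the 41 nt Ile-AAT fragment -2.99 to 0.10. The second-class share of Phe-GAA was higher in Alkbh3-/- by 11.7 percentage points over all lengths and by 4.30 points within 15 to 50 nt. Over all lengths it rested on 57 and 102 reads in libraries A and B and 90 in wild type. The 95% intervals overlapped (37.3 to 64.4% and 38.0 to 58.2% in libraries A and B, 27.8 to 48.6% in wild type). No paired analysis was possible because the wild type group has 1 library. Ile-GAT, Pro-GGG and Ile-TAT had too few reads for a difference to be detectable at this depth.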
